A study of Homo sapiens with 6 samples.

Results

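The data describe 39 genes of the ephrin, Eph receptor, slit, robo and netrin families, out of 21625 genes listed in the deposited tables. They were taken by gene symbol alone: 8 ephrins, 14 Eph receptors, 3 slits, 4 robos, 4 netrins and 6 netrin receptors (DCC, NEO1 and UNC5A to UNC5D). Gene expression was measured by mRNA sequencing in CHL-1, a human skin melanoma cell line that carries the EWSR1::CREM fusion gene, in which CREM codes for a cAMP-responsive transcription factor. Cells transfected for 48 h with 50 nM of a pool of siRNAs against CREM (CREM siRNA, genotype given as CREM knockdown, 3 libraries) were set against cells that received a mix of 3 non-targeting siRNAs (Control siRNA, genotype given as WT although these cells carry the fusion as well, 3 libraries). The siRNAs are directed at the part of CREM that the fusion keeps, so fusion and wild type transcripts are both targeted, and a value per gene cannot separate them. All 6 libraries come from one cell line and one transfection protocol (Dharmafect 4), and no sample without transfection was analysed here. Some of the deposited column names carry the word serum for all 6 libraries, without explaining it. The study's culture medium contained fetal bovine serum.

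Ephrins are ligands that stay attached to the cell surface and bind Eph receptors, the largest family of receptor tyrosine kinases, on neighbouring cells, with signals running into both cells. A-class ephrins are held by a lipid anchor and mainly bind EphA receptors, and B-class ephrins cross the membrane and mainly bind EphB receptors. Slits are secreted ligands of the robo receptors, and netrins are secreted laminin-like proteins that act through DCC, neogenin and the UNC5 receptors. They are best known as cues that steer growing axons, and they also set the adhesion, spacing and migration of other cells, including cells of the neural crest, the lineage melanocytes come from.

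Each library held 17221794 to 29793837 reads over the listed genes. The targeted gene, CREM, was at 14.8, 16.9 and 15.5 CPM (read counts scaled to library size) with CREM siRNA, against 268, 286 and 287 CPM with Control siRNA, or 5.62% of the control mean. Of the melanocyte markers, MITF, SOX10, PAX3, ERBB3, S100B, DCT and PMEL were detected at 1 CPM or more in every library. TYRP1 was at 1.04 to 1.32 CPM with CREM siRNA and 0.589 to 0.858 CPM with Control siRNA, and TYR and MLANA had no read outside replicate 3 of each group. The summed level of the 10 listed melanocyte markers was 4266 to 4548 CPM with CREM siRNA and 1723 to 1810 CPM with Control siRNA. Markers of other cell types also differed in sum, in the epithelial, endothelial and leukocyte lists mostly through 1 gene. The 7 epithelial markers summed to 46.6 to 53.6 CPM with CREM siRNA and 15.5 to 16.5 CPM with Control siRNA, of which ESRP1 gave 43.2 to 50.2 CPM with CREM siRNA and 11.2 to 11.4 CPM with Control siRNA, while KRT18 was lower with CREM siRNA. The 7 endothelial markers summed to 1.29 to 1.39 CPM with CREM siRNA and 23.4 to 27.8 CPM with Control siRNA, of which KDR gave 0.642 to 0.884 CPM with CREM siRNA and 23.2 to 27.5 CPM with Control siRNA. The endothelial markers VWF and TIE1 were faint, at no more than 0.372 CPM in any library, and were higher with CREM siRNA on few reads. For TIE1 the values were 0.372, 0.123 and 0.121 CPM with CREM siRNA and 0.058, 0.041 and 0 CPM with Control siRNA. Leukocyte markers, mainly PTPRC, summed to 1.97 to 3.04 CPM with CREM siRNA and 10.3 to 11.7 CPM with Control siRNA, and fibroblast markers to 12.3 to 13.5 CPM with CREM siRNA and 15.2 to 15.6 CPM with Control siRNA. Of the epithelial and endothelial markers, CDH1, KRT5, PECAM1, CDH5, TEK and ROBO4 had at most 3 reads in every library. The same held for CD3E of the leukocyte list and for COL3A1 and PDGFRA of the fibroblast list. Other markers were detected, among them PTPRC at 9.07 to 10.3 CPM with Control siRNA and PDGFRB at 8.92 to 11.7 CPM over all libraries. Replicate 3 of both groups held more PMEL, at 23.5 CPM with CREM siRNA and 5.47 CPM with Control siRNA, against 1.05 to 2.29 CPM in the other 4 libraries. It was also the replicate with MLANA, at 1.25 CPM with CREM siRNA and 0.589 CPM with Control siRNA, and with TYR, at 0.683 CPM with CREM siRNA and 0.084 CPM with Control siRNA. The part of these marker differences in the results that follow was not tested.

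The promoters of the 4 genes with the largest changes on the log2(RPKM + 1) scale are shown first, because CREM binds DNA through the cAMP response element. The sequences are RefSeq windows of GRCh38.p14 from 250 bases before to 50 bases after the annotated start, 5′ to 3′ on the strand of the gene, for EPHA2 (chr1:16156020-16156319, minus strand), EPHA3 (chr3:89107371-89107670, plus strand), EFNB2 (chr13:106535613-106535912, minus strand) and the one of the NTN4 windows that holds a match (chr12:95791106-95791405, minus strand). Capitals mark matches to the full element TGACGTCA or to its shorter core TGACG, searched on both strands.
EPHA2: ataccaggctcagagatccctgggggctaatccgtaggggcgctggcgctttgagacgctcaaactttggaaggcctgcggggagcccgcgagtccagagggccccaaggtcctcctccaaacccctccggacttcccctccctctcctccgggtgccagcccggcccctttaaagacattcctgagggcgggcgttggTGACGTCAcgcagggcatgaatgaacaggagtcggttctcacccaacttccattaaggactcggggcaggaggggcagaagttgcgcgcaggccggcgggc
EPHA3: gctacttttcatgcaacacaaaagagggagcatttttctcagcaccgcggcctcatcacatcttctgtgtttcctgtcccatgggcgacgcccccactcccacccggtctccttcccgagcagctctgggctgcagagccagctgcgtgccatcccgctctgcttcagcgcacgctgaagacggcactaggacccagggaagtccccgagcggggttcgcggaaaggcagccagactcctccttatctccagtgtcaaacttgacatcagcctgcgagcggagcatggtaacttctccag
EFNB2: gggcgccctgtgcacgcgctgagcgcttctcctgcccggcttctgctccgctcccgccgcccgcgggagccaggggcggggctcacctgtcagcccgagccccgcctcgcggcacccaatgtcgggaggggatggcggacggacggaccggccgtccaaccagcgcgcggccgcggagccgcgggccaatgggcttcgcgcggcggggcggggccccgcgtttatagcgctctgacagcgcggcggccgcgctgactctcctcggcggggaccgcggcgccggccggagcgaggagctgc
NTN4: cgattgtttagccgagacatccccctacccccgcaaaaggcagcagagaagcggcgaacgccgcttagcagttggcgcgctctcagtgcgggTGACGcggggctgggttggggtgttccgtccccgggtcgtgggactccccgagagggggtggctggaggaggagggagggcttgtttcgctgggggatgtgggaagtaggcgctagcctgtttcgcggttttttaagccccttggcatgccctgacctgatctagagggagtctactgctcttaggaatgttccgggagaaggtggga

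The EPHA2 window held the full element 51 bases upstream of the start, and it was the only one of 44 windows of these families (33 of the 39 genes had a window) to do so, or 2.27% against 1.85% of all 35116 promoter windows. The shorter core, which also lies inside the full element, was found in 13 of the 44 windows, or 29.5% against 24.6% of all windows. In NTN4 it lay 158 bases upstream of the start, and neither EPHA3 nor EFNB2 had a match in the printed window. Of the genes that passed the test of expression and had a window, 4 of 12 lower genes (EPHA2, EPHA7, NTN4 and SLIT3) and 1 of 3 higher genes (EPHB3) held the core, beside 12 of the 33 genes with a window. These are counts of genes, some with several windows, and cannot be set against the shares of windows. The same share over all genes was not counted. The AP-1 element TGANTCA, searched in the same way, was in none of the 44 windows and in 7.71% of all. The windows of these families were rich in G and C, with a median of 66.8% against 58.7% for all windows. A match is a description of the letters in these windows, and binding was not measured.

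Of the 39 genes, 21 had a mean of at least 1 RPKM (reads per kilobase of transcript, scaled as CPM is) over the 6 libraries and entered the test. With CREM siRNA, 12 of these fell and 4 rose, while 5 did not pass (limma on log2(RPKM + 1), Benjamini-Hochberg adjusted p under 0.05 over all 12407 genes tested). The share called, 76.2%, stood beside 73.4% of all genes tested, of which 36.6% were higher and 36.7% lower. The median log2 fold change of the 21 genes was -0.27, and that of all genes tested was 0.0037. Changes of at least 1 log2 unit were found for 5 of the 21 genes (23.8%), against 14.6% of all genes, and a change of at least 2 log2 units for EPHA3 alone, against 3.74% of all genes. All fold changes below are on the log2(RPKM + 1) scale, which makes changes of weakly expressed genes look smaller than they are. In these bulk libraries fewer cells expressing a gene and less RNA per cell cannot be told apart.

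The libraries of both groups did not overlap for 17 of the 21 genes, against 76.2% of all genes tested. GAPDH, to which the study's methods say values were normalised, was at 1298 to 1501 CPM with CREM siRNA and 1517 to 1591 CPM with Control siRNA. Scaling the libraries to equal GAPDH moved the median fold change of all genes by 0.18 log2 units upward, gave 5787 higher and 2976 lower genes of all tested, and gave 9 higher and 9 lower genes among the 21. In that fit limma gave all genes of like level one shared spread (infinite prior degrees of freedom, against a median of 6.39 with the deposited scaling), so its counts and p-values here and below do not rest on the spread of the single gene. Without replicate 3 of both groups, an alternative added after the data were seen, 4 genes were higher and 11 lower. None of the 21 genes changed direction under that scaling or under any of the other alternatives tried.

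**Figure D1:**
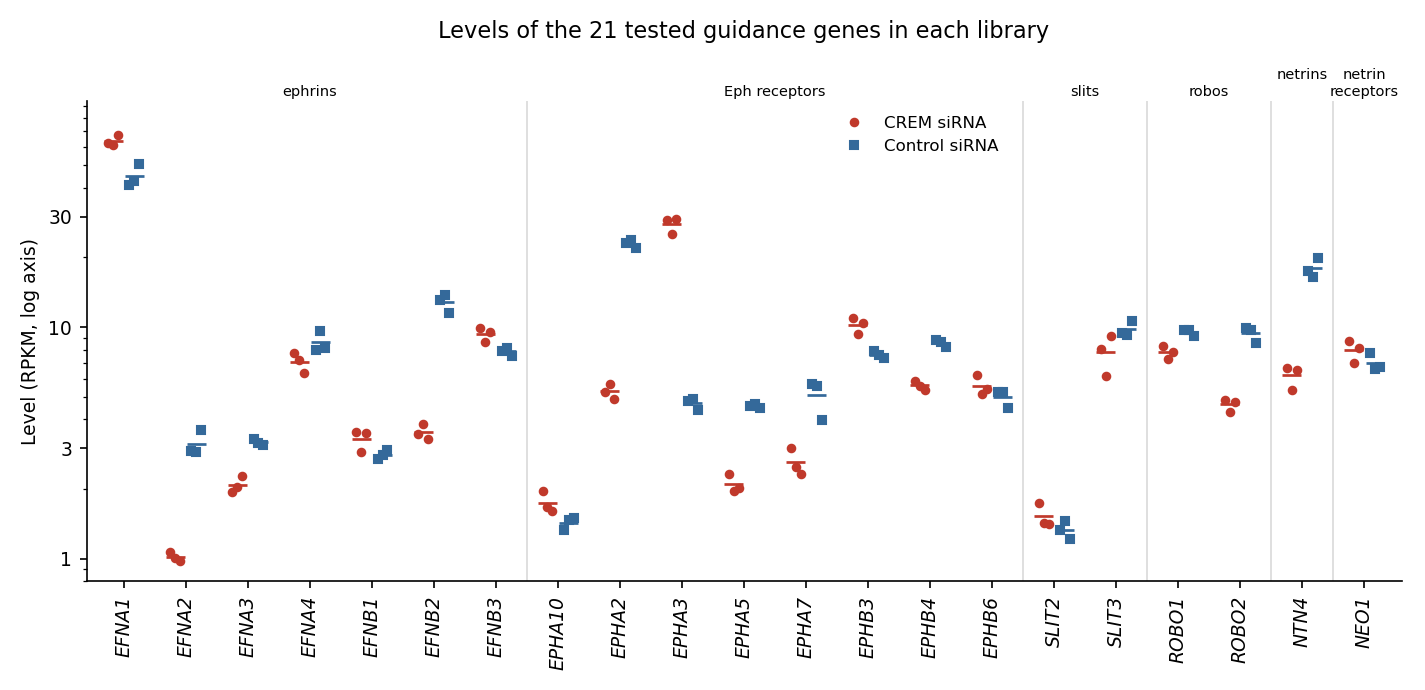
Level of each of the 21 tested genes in every library, in RPKM on a log axis, with CREM siRNA as red circles, Control siRNA as blue squares and horizontal bars for the group means (3 libraries each). EPHA3 lies far above and EPHA2, EFNB2 and NTN4 far below their control libraries, while EFNA1 has the highest level in both groups.

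The largest changes were in the EphA receptors, which mainly bind A-class ephrins. EPHA2, a receptor common in epithelial and tumour cells (GRCh38, chr1:16124337-16156087, minus strand), was at 5.25, 5.67 and 4.92 RPKM with CREM siRNA, against 23.1, 23.8 and 21.9 RPKM with Control siRNA. Every CREM siRNA library was far below every control library, and the mean level was 4.34-fold higher in Control siRNA (log2 fold change -1.93, SE 0.0602, limma adjusted p = 3.33e-10). EPHA3, a receptor of the embryonic heart and nervous system that has also been found on melanoma cells (chr3:89107524-89482134, plus strand), was at 29.2, 25.3 and 29.2 RPKM with CREM siRNA and 4.83, 4.89 and 4.41 RPKM with Control siRNA. Here the order was the opposite, with all CREM siRNA libraries on top and a mean 5.93-fold that of the controls (log2 fold change 2.34, SE 0.0675, limma adjusted p = 1.89e-10). Among all 12407 genes, EPHA3 ranked 80 from the top by fold change and EPHA2 ranked 359 from the bottom. The EPHA2 window printed above is the one with the full cAMP response element. Those of EPHA3, which was higher, and of EFNB2, which was lower, had neither form of it, and a link between these matches and expression was not tested.

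A pair of further EphA receptors, both best known from the developing brain, were lower. EPHA5 was at 2.33, 1.95 and 2.01 RPKM with CREM siRNA and 4.56, 4.66 and 4.46 RPKM with Control siRNA, without overlap (log2 fold change -0.85, SE 0.0676, limma adjusted p = 6.95e-07). The antisense gene EPHA5-AS1 overlaps its exons and averaged 1.35 CPM with CREM siRNA and 3.40 CPM with Control siRNA, and reads of both cannot be told apart if strand was not used in counting. EPHA7 was at 3.00, 2.49 and 2.33 RPKM with CREM siRNA and 5.70, 5.56 and 3.97 RPKM with Control siRNA. The third control library was lower than the other two but still above all CREM siRNA libraries (log2 fold change -0.74, SE 0.118, limma adjusted p = 2.63e-04). EPHA10, a receptor whose kinase domain is thought to be inactive, was at 1.96, 1.67 and 1.61 RPKM with CREM siRNA and 1.33, 1.46 and 1.49 RPKM with Control siRNA. Its groups did not overlap, but the difference of 0.17 log2 units (95% interval 0.0092 to 0.34) did not pass (limma adjusted p = 0.0546). It passed without replicate 3 of CREM siRNA (limma adjusted p = 0.0485) and with edgeR on recovered reads (adjusted p = 0.0221). With DESeq2 on the same reads it did not pass (adjusted p = 0.0709), and 11 of the 17 alternatives that tested EPHA10 did not call it.

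Summed over the EphA genes, the level differed little between groups, at 41.8, 37.3 and 40.3 RPKM with CREM siRNA and 39.6, 40.4 and 36.4 RPKM with Control siRNA (two-sided exact permutation p = 0.6, n = 3 per group). The make-up was different. EPHA3 gave 69.7%, 67.8% and 72.6% of the EphA sum with CREM siRNA, against 12.2%, 12.1% and 12.1% with Control siRNA. EPHA2 gave 12.6%, 15.2% and 12.2% with CREM siRNA, against 58.3%, 58.9% and 60.3% with Control siRNA. The most abundant EphA transcript was thus EPHA3 in all 3 CREM siRNA libraries and EPHA2 in all 3 control libraries. The ratio of EPHA3 to EPHA2, which no scaling of the libraries can change, was 5.55, 4.46 and 5.95 with CREM siRNA and 0.209, 0.206 and 0.201 with Control siRNA, a mean 25.9-fold higher with CREM siRNA (two-sided exact permutation p = 0.1, the smallest that 3 against 3 libraries allow). Shares compare levels per gene length and say nothing about protein.

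**Figure D2:**
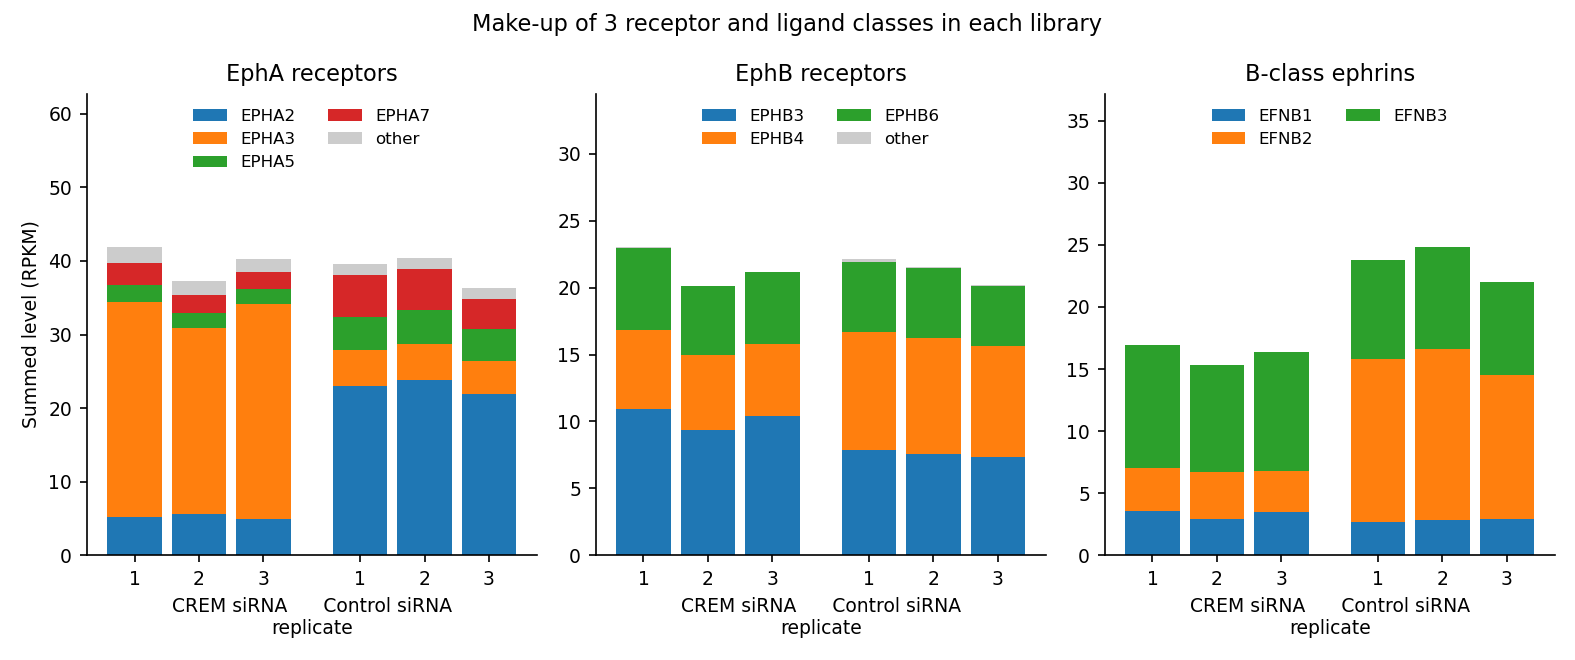
Summed level in RPKM of the EphA receptors, the EphB receptors and the B-class ephrins, one stacked bar per library, with the 3 CREM siRNA replicates left of the 3 Control siRNA replicates and each gene in its own colour. The EphA and EphB bars have similar heights in both groups while the largest EphA block is EPHA3 with CREM siRNA and EPHA2 with Control siRNA, and the B-class ephrin bars are lower with CREM siRNA, with a smaller EFNB2 block.

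Of the EphB receptors tested, which mainly bind B-class ephrins, 1 was lower, 1 was higher and 1 did not pass. EPHB4, a receptor for ephrin-B2 known from the separation of veins from arteries, was at 5.88, 5.60 and 5.34 RPKM with CREM siRNA and 8.77, 8.65 and 8.25 RPKM with Control siRNA, without overlap (log2 fold change -0.53, SE 0.0577, limma adjusted p = 8.64e-06). SLC12A9 overlaps its exons on the opposite strand and averaged 71.0 CPM with CREM siRNA and 55.3 CPM with Control siRNA, the other direction. EPHB3, known from the sorting of cells in intestinal crypts, was at 10.9, 9.37 and 10.4 RPKM with CREM siRNA and 7.89, 7.56 and 7.37 RPKM with Control siRNA. All CREM siRNA libraries were above the controls (log2 fold change 0.38, SE 0.0638, limma adjusted p = 2.55e-04). EPHB6, a receptor without kinase activity, was at 6.20, 5.16 and 5.41 RPKM with CREM siRNA and 5.27, 5.26 and 4.48 RPKM with Control siRNA. These overlapped, and the difference of 0.13 log2 units (95% interval -0.042 to 0.31) did not pass (limma adjusted p = 0.151).

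The EphB sum was 23.0, 20.1 and 21.2 RPKM with CREM siRNA and 22.1, 21.6 and 20.2 RPKM with Control siRNA, with full overlap (two-sided exact permutation p = 1.0, n = 3 per group). EPHB3 gave 46.5% to 49.2% of it with CREM siRNA and 35.1% to 36.5% with Control siRNA, and EPHB4 gave 25.2% to 27.8% with CREM siRNA and 39.7% to 40.9% with Control siRNA. The order of these receptors was therefore exchanged, with a ratio of EPHB3 to EPHB4 of 1.86, 1.67 and 1.95 with CREM siRNA and 0.900, 0.874 and 0.893 with Control siRNA. Over all 14 Eph genes the sum was 61.2 ± 3.73 RPKM with CREM siRNA and 60.0 ± 3.05 RPKM with Control siRNA (SD, n = 3 each, two-sided exact permutation p = 0.7).

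Among the A-class ephrins, EFNA1, a ligand of EPHA2 first found as a gene induced by tumour necrosis factor, was the most abundant gene of all these families. It was at 62.4, 61.0 and 67.4 RPKM with CREM siRNA and 41.2, 42.8 and 50.4 RPKM with Control siRNA. The lowest CREM siRNA library was above the highest control (log2 fold change 0.50, SE 0.0736, limma adjusted p = 1.11e-04). EFNA4, another ligand of EphA receptors, was at 7.74, 7.23 and 6.36 RPKM with CREM siRNA and 7.99, 9.66 and 8.17 RPKM with Control siRNA, without overlap but with neighbouring values (log2 fold change -0.24, SE 0.0831, limma adjusted p = 0.0214). Its call was lost without replicate 3 of CREM siRNA (limma adjusted p = 0.0883), without replicate 2 of Control siRNA (limma adjusted p = 0.101) and with libraries scaled to GAPDH (log2 fold change -0.07, limma adjusted p = 0.554).

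EFNA3 was at 1.93, 2.04 and 2.28 RPKM with CREM siRNA and 3.30, 3.16 and 3.09 RPKM with Control siRNA, lower in every CREM siRNA library (log2 fold change -0.44, SE 0.0679, limma adjusted p = 1.39e-04). EFNA2 was at 1.07, 1.01 and 0.975 RPKM with CREM siRNA and 2.91, 2.88 and 3.59 RPKM with Control siRNA, or 32.6% of the control mean. It is the weakest of the called ephrins, and its log2 fold change of -1.03 (SE 0.0801, limma adjusted p = 5.72e-07) compares with -1.62 from edgeR on recovered reads, where NTN4 was at -1.53. EFNA5 was under the minimum, with 74, 47 and 74 reads with CREM siRNA and 61, 74 and 96 with Control siRNA. Scaled for depth these were 2.50, 1.92 and 2.97 CPM with CREM siRNA and 3.52, 3.02 and 4.04 CPM with Control siRNA, and edgeR called it lower (log2 fold change -0.51, adjusted p = 0.0242). DESeq2 on the same reads did not call EFNA5 (adjusted p = 0.0566). The A-class sum was 73.5, 71.6 and 77.5 RPKM with CREM siRNA and 55.9, 59.0 and 65.9 RPKM with Control siRNA, and EFNA1 gave 84.9% to 87.0% of it with CREM siRNA and 72.6% to 76.6% with Control siRNA.

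The genes EFNA4 (chr1:155063731-155069553), EFNA3 (chr1:155078872-155087538) and EFNA1 (chr1:155127460-155134857) lie in this order on the plus strand of chromosome 1 (GRCh38, GENCODE 29), with gaps of 9.319 and 39.922 kb between them. Within this short cluster EFNA1 was higher and both of its neighbours were lower with CREM siRNA. A protein-coding gene model, AL691442.1, overlaps exons of EFNA3 and EFNA4 on the same strand, and the sources used here do not say to which gene such reads were assigned. The ratio of EFNA1 to EFNA4 was 9.04 ± 1.37 with CREM siRNA and 5.26 ± 0.875 with Control siRNA (SD, n = 3 each).

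Of the B-class ephrins, EFNB2, the ligand of EPHB4 and a marker of arteries (chr13:106489731-106535662, minus strand), had the largest change. It was at 3.46, 3.83 and 3.31 RPKM with CREM siRNA and 13.1, 13.8 and 11.6 RPKM with Control siRNA. The mean was 3.63-fold higher in Control siRNA, and the groups were far apart (log2 fold change -1.61, SE 0.0746, limma adjusted p = 7.52e-09). Of the endothelial markers, KDR was lower as well, while VWF and TIE1 were faint and higher on few reads, as given above. PECAM1, CDH5 and TEK had at most 3 reads in every library, and the part of other cells in the EFNB2 values was not tested. An antisense gene model, AL138689.2, overlaps exons of EFNB2 on the other strand. EFNB3, a ligand at the midline of the nervous system, was at 9.91, 8.63 and 9.55 RPKM with CREM siRNA and 7.92, 8.15 and 7.50 RPKM with Control siRNA, higher without overlap (log2 fold change 0.23, SE 0.0629, limma adjusted p = 0.00767). EFNB1, the gene of craniofrontonasal syndrome, was at 3.54, 2.89 and 3.49 RPKM with CREM siRNA and 2.70, 2.81 and 2.94 RPKM with Control siRNA. The second CREM siRNA library lay within the controls, and the difference of 0.17 log2 units (95% interval 0.0024 to 0.34) did not pass (limma adjusted p = 0.0632), but did without that library (limma adjusted p = 0.0141).

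The B-class sum was 16.9, 15.4 and 16.3 RPKM with CREM siRNA and 23.8, 24.8 and 22.0 RPKM with Control siRNA. EFNB2 gave 20.5%, 25.0% and 20.2% of it with CREM siRNA, against 55.3%, 55.8% and 52.5% with Control siRNA. EFNB3 gave 56.2% to 58.6% with CREM siRNA and 32.9% to 34.1% with Control siRNA. As with the EphA receptors, the gene with most transcript differed between the groups in all 6 libraries, EFNB3 with CREM siRNA and EFNB2 with Control siRNA.

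**Figure D3:**
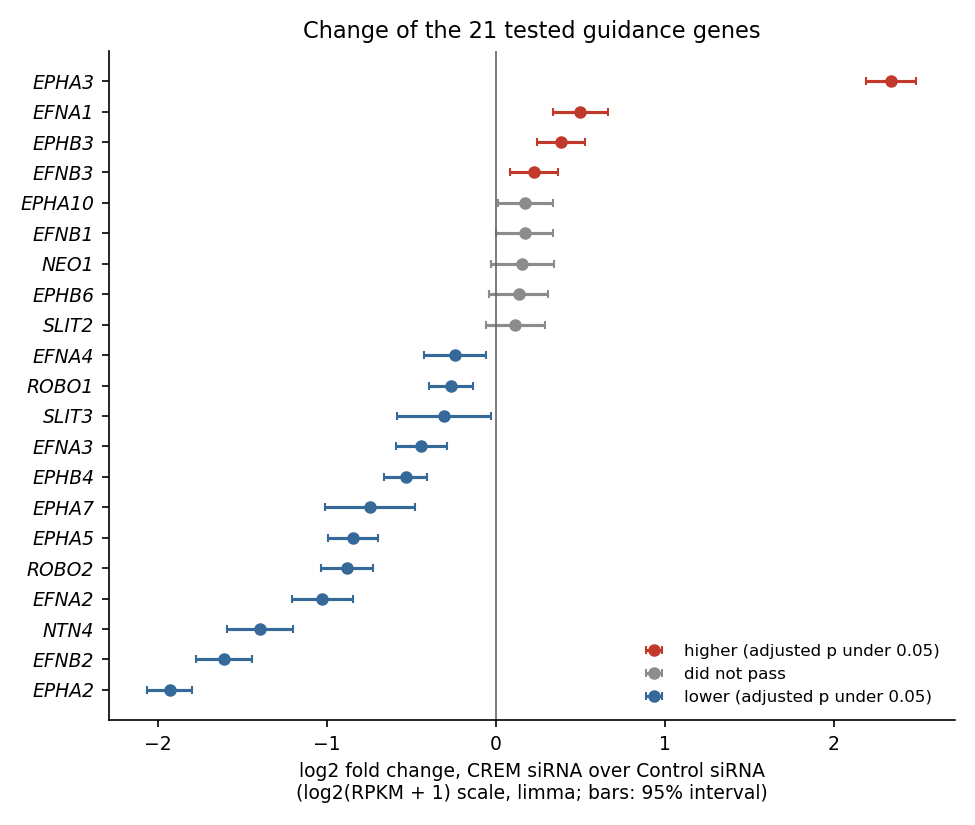
Log2 fold change of the 21 tested genes, CREM siRNA over Control siRNA on the log2(RPKM + 1) scale, with 95% limma intervals. Red genes were higher, blue genes lower and grey genes did not pass at an adjusted p of 0.05: EPHA3 stands alone at 2.34, and EPHA2, EFNB2, NTN4 and EFNA2 lie at -1.93, -1.61, -1.40 and -1.03.

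Of the netrins, NTN4, a basement membrane netrin that binds laminin (chr12:95657807-95791152, minus strand), was the one gene with a mean of at least 1 RPKM. It was at 6.69, 5.35 and 6.53 RPKM with CREM siRNA and 17.4, 16.4 and 19.9 RPKM with Control siRNA, or 34.5% of the control mean. No CREM siRNA library came near the controls (log2 fold change -1.40, SE 0.0884, limma adjusted p = 1.40e-07). Of the netrin receptors only NEO1, the gene of neogenin, which also binds repulsive guidance molecules, reached the minimum. It was at 8.74, 6.99 and 8.16 RPKM with CREM siRNA and 7.75, 6.63 and 6.70 RPKM with Control siRNA. The groups overlapped, and the difference of 0.16 log2 units (95% interval -0.028 to 0.34) did not pass (limma adjusted p = 0.112). It passed without replicate 2 of CREM siRNA (limma adjusted p = 0.0247) and without replicate 1 of Control siRNA (limma adjusted p = 0.0397).

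The robo receptors tested were both lower. ROBO2 (chr3:75906695-77649964, plus strand), a receptor also needed in kidney development, was at 4.87, 4.32 and 4.75 RPKM with CREM siRNA and 9.91, 9.75 and 8.58 RPKM with Control siRNA. All CREM siRNA libraries were well below the controls (log2 fold change -0.88, SE 0.0690, limma adjusted p = 5.81e-07). ROBO1 (chr3:78597240-79767815, minus strand), another receptor of slits, was at 8.31, 7.31 and 7.78 RPKM with CREM siRNA and 9.74, 9.77 and 9.20 RPKM with Control siRNA. The groups did not overlap, but the difference was smaller (log2 fold change -0.27, SE 0.0598, limma adjusted p = 0.00205) and did not pass with libraries scaled to GAPDH (log2 fold change -0.09, limma adjusted p = 0.427). The ratio of ROBO1 to ROBO2 was 1.71, 1.69 and 1.64 with CREM siRNA and 0.983, 1.00 and 1.07 with Control siRNA, and so the receptors had about equal levels with Control siRNA while ROBO1 was ahead with CREM siRNA. The sum of the robos was 12.8 ± 0.779 RPKM with CREM siRNA and 19.2 ± 0.984 RPKM with Control siRNA (SD, n = 3 each).

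Among the slits, SLIT3 was at 8.05, 6.16 and 9.16 RPKM with CREM siRNA and 9.47, 9.22 and 10.7 RPKM with Control siRNA. The highest CREM siRNA library almost reached the lowest control, and the CREM siRNA libraries were spread widely (log2 fold change -0.31, SE 0.121, limma adjusted p = 0.0478). This call was lost in 5 of the 6 fits that left out a library, all but the one without replicate 3 of CREM siRNA, at limma adjusted p between 0.0630 and 0.166. It was also lost with libraries scaled to GAPDH (log2 fold change -0.13, limma adjusted p = 0.234), and antisense genes overlap exons of SLIT3. SLIT2, the ligand of ROBO1 and ROBO2 with the lowest level of these tested genes in Control siRNA, was at 1.74, 1.42 and 1.42 RPKM with CREM siRNA and 1.34, 1.45 and 1.21 RPKM with Control siRNA. The groups overlapped and the difference of 0.11 log2 units (95% interval -0.059 to 0.29) did not pass (limma adjusted p = 0.208).

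The other 18 genes were under the minimum, and 14 of them had at most 12 reads in any library. Of the 4 with at least 20 reads in a library, EFNA5 is given above. EPHA6, a receptor of the nervous system, had 23, 31 and 21 reads with CREM siRNA and 9, 7 and 13 with Control siRNA, and its CPM values did not overlap (edgeR log2 fold change 1.10, adjusted p = 0.0109). DESeq2 on the same reads did not call EPHA6 (adjusted p = 0.0518). ROBO3, a receptor of crossing axons, had 43, 39 and 58 reads with CREM siRNA and 15, 31 and 38 with Control siRNA, with overlap in CPM (edgeR log2 fold change 0.48, adjusted p = 0.111). NTN3 had 32, 16 and 20 reads with CREM siRNA and 25, 24 and 20 with Control siRNA (edgeR log2 fold change -0.31, adjusted p = 0.359). With these, edgeR on recovered reads tested 25 of the 39 genes and called 6 higher and 13 lower, where it called 72.2% of all 14770 genes it tested, 36.7% higher and 35.6% lower. The edgeR counts include EPHA10, EFNA4, EFNA5 and EPHA6, which DESeq2 on the same reads did not call. DESeq2 called 6 higher and 12 lower. Among these were the faint genes EPHB1, UNC5C and EPHA1 (DESeq2 adjusted p = 0.00175, 0.0119 and 0.0462), which edgeR did not test.

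The remaining genes were near or at the limit of detection, and no fold change is given for them. The receptor EPHB1 had 1, 2 and 0 reads with CREM siRNA and 12, 10 and 8 with Control siRNA, while the netrin receptor UNC5C had 6, 11 and 5 reads with CREM siRNA and 0, 1 and 0 with Control siRNA. These were the clearest separations among the faint genes. DCC, the classical netrin receptor, had 6, 3 and 1 reads with CREM siRNA and 0, 1 and 2 with Control siRNA, and netrin-1, NTN1, had a single read in 1 of the 6 libraries. EPHA1 had 3, 1 and 7 reads with CREM siRNA and 0 in all control libraries, and its exons overlap ZYX on the opposite strand, which averaged 231 CPM with CREM siRNA and 133 CPM with Control siRNA. NTN5 and UNC5B had at most 8 reads in any library, and EPHA4, EPHA8, EPHB2, SLIT1, ROBO4, UNC5A and UNC5D at most 4. A count of 0 allows up to 3 reads, and so at this depth these transcripts can be called undetectable or faint but not absent.

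Further genes of these pathways were read from 3 lists that contain none of the 39 genes. The lists hold adaptors, kinases and cytoskeletal regulators, and also surface proteins such as FLRT2, FLRT3, RGMA and GPC1, so not all of their genes act downstream. Of the ephrin signalling list, 22 of 32 genes were tested, and 5 were higher, 8 lower and 9 did not pass, or 59.1% called against 73.4% of all genes tested. The median log2 fold change was 0.03, and with libraries scaled to GAPDH the split was 11 higher and 2 lower. FYN, a Src family kinase, averaged 218 ± 5.75 CPM with CREM siRNA and 114 ± 4.22 CPM with Control siRNA (log2 fold change 0.91, limma adjusted p = 1.98e-08). NCK2, an SH2 adaptor, and ADAM10, a protease that cleaves ephrins and Eph receptors, were higher too, by 0.68 and 0.48 log2 units. The lower genes included the chimaerins CHN1 and CHN2, inhibitors of Rac of which CHN1 acts after an EphA receptor in axons of the mouse, at log2 fold changes of -0.72 and -0.61. The Src family kinase YES1 was lower at -0.37, which did not pass when the libraries were scaled to GAPDH (limma adjusted p = 0.0724).

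Of the slit and robo signalling list, 25 of 26 genes were tested, with 14 higher, 6 lower and 5 that did not pass (80.0% called) and a median log2 fold change of 0.23. FLRT3, a membrane protein that binds robo and UNC5 receptors, averaged 36.0 ± 0.827 CPM with CREM siRNA and 3.90 ± 0.637 CPM with Control siRNA (SD, n = 3 each, log2 fold change 2.24, limma adjusted p = 3.85e-10). The microtubule-binding proteins CLASP1 and CLASP2 were higher by 0.96 and 1.01 log2 units. The lower genes were led by the small GTPase RAC1, which averaged 247 ± 8.51 CPM with CREM siRNA and 450.3 ± 8.77 CPM with Control siRNA (log2 fold change -0.86, limma adjusted p = 2.80e-08), with the actin regulators VASP at -0.73 and CAP2 at -0.72.

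Of the netrin signalling list, 20 of 31 genes were tested, with 4 higher, 11 lower and 5 that did not pass (75.0% called) and a median log2 fold change of -0.16. ABLIM1, an actin-binding protein related to a netrin pathway protein of the worm, averaged 15.2 ± 1.58 CPM with CREM siRNA and 604 ± 37.1 CPM with Control siRNA, the largest change on any of the 3 lists (log2 fold change -4.59, limma adjusted p = 2.88e-12). FLRT2, which binds UNC5 receptors, was lower too, at a log2 fold change of -0.93. WASL and TRIO, regulators of actin and of Rac, were higher by 0.41 log2 units each and ELMO2 by 0.20. The counts describe the lists beside the genome-wide shares given above and were not tested as sets.

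**Figure D4:**
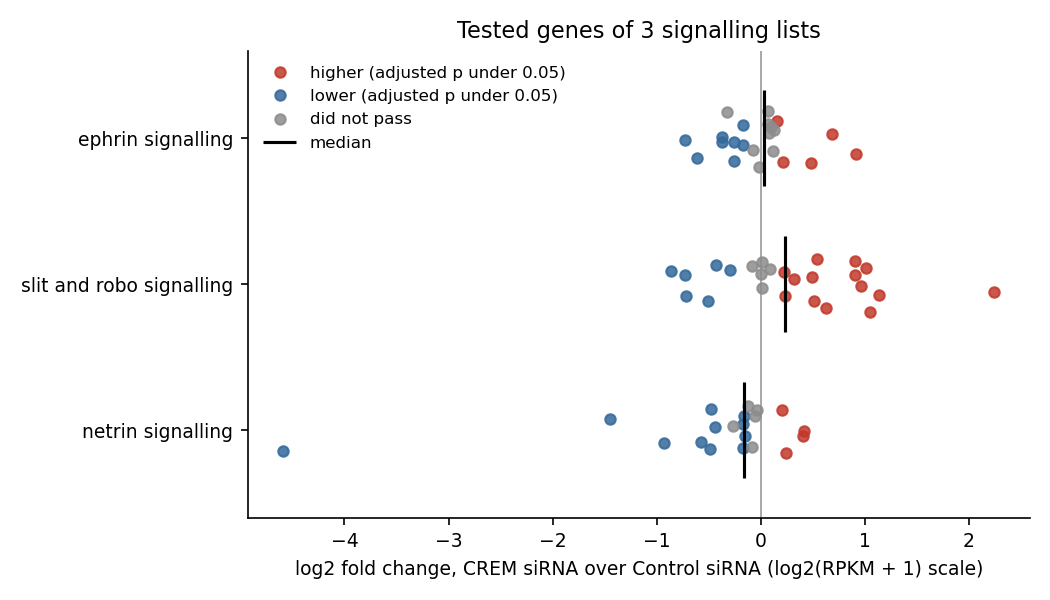
Log2 fold change (log2(RPKM + 1) scale, CREM siRNA over Control siRNA) of each tested gene of the ephrin, slit and robo, and netrin signalling lists, red for higher, blue for lower and grey for genes that did not pass, with a black bar at the median of each list. FLRT3 at 2.24 and ABLIM1 at -4.59 lie farthest from 0, and the medians are 0.03, 0.23 and -0.16.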

How the data were processed

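CHL-1 cells were sequenced with the Illumina Stranded mRNA Prep on an Illumina HiSeq, from 100 ng of RNA per sample. The authors deposited a CPM table and an RPKM table with one column per library, and the submitters' processing notes name hg38 and R 3.6.1. For the aligner, counting program, annotation and strand setting, nothing is given in the sources used here. Every deposited CPM value was a whole multiple of one step per library (100% within 0.001 reads), which gave the reads per gene, and the deposited RPKM values equal these CPM divided by one length per gene. The CPM values summed to 973557 to 1007039 per library, so the deposited scaling was not by the read total alone. Library totals were 17221794 to 29793837 reads, a limit on the precision for genes with few reads.

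The main test was limma 3.58.1 (R 4.3.3, trended and robust empirical Bayes, two-sided) on log2(RPKM + 1), over the 12407 genes that averaged 1 RPKM or more, and p-values were adjusted after Benjamini and Hochberg over all of these. The code was tested on simulated data in which far fewer genes changed than were called here, so that test does not cover changes this broad. Alternatives were pseudocounts of 0.1 and 0.5, no filter, a filter of 5 RPKM, scaling by GAPDH (GAPDH itself left out), by 11 reference genes or by median ratios, the CPM table, edgeR 4.0.16 and DESeq2 1.42.0 on the recovered reads, the replicate number as a block and each library left out. Single values were compared with exact permutation tests. Gene positions came from GENCODE 29, and motifs from RefSeq promoter windows of GRCh38.p14.

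Values are given per library for genes at 1 RPKM or more in one group, as reads for those with at least 20 reads in one library, and otherwise as ranges or for the few named after their values were seen. From each list the 3 rising and the 3 falling genes of lowest adjusted p were named, beside CREM and GAPDH, except for 1 gene that is not reported here. The genes, lists and motifs were chosen with earlier results of these data known. The study describes triplicate experiments, and nothing says whether replicates were separate cultures, so p-values measure only the spread between these libraries.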

Additional observations from a re-analysis of the deposited data

How the results depend on the processing

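All 21 tested genes kept their direction, and 12 of the 16 called genes their call, under each of the 18 alternatives that tested them, and EFNA4, EFNB3, ROBO1 and SLIT3 lost theirs in at least 1. A filter of 5 RPKM left out 7 of the genes, among them the called EFNA2, EFNA3, EPHA5 and EPHA7, so that 4 were higher and 8 lower there. The calls of EFNA4 and SLIT3 were also lost without a filter (limma adjusted p = 0.0593 and 0.0876), and that of EFNA4 with DESeq2 (adjusted p = 0.0702). SLIT3 did not pass, by a narrow margin, with a pseudocount of 0.1, nor after scaling by reference genes (limma adjusted p = 0.0774). Without replicate 3 of both groups, EFNA4 and EFNB3 did not pass (limma adjusted p = 0.0603 and 0.0567) and EPHA10 did (limma adjusted p = 0.0486). EFNB1 and EPHA10 passed after scaling by reference genes (limma adjusted p = 0.0337 and 0.0284). Scaling by GAPDH, with one spread shared by all genes of like level, gave 9 genes of the families called higher, among them EFNB1, EPHA10, EPHB6, SLIT2 and NEO1, and 2976 lower genes of all tested, and the ephrin list had 11 higher and 2 lower genes and the netrin list 7 lower genes. The ephrin list had 8 higher genes without a filter, 8 with DESeq2 and 9 with edgeR, and 5 lower genes with a filter of 5 RPKM. The netrin list had 7 higher genes with the CPM table, with edgeR and with DESeq2. The cause of these differences was not tested. When each library was left out in turn, 4 to 6 genes of the families were higher and 10 to 11 lower.

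The deposited columns number the libraries Exp1 to Exp3 in both groups, without saying that a number marks a shared day or batch. Same-numbered libraries correlated at 0.27, -0.035 and 0.14 in their deviations from the group means, so the numbers were not taken to pair the samples, although replicates 1 and 3 of CREM siRNA, but not 2, correlated best with their own number. Replicate 3 of both groups also shared the higher PMEL and the only reads of MLANA and TYR, as given above. Whether same-numbered libraries share a batch was not tested. With the replicate number as a block, 6 genes of the families were higher and 12 lower, the gains being EFNB1 and NEO1, and the ephrin list had 8 higher genes. Of all genes tested, 4853 were higher and 4812 lower with the block, against 4544 and 4558 without it. Depth limits what can be said of the 14 genes with at most 12 reads in any library, and the unknown strand setting limits EFNB2, EPHA5, EPHB4 and SLIT3, whose exons overlap genes on the other strand.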
